A study of Mus musculus with 2 samples.

Results

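The Mir379 to Mir410 cluster is a run of microRNA (miRNA) genes at the distal end of the imprinted Dlk1-Dio3 region of mouse chromosome 12. Its members were taken as all GENCODE M21 miRNA genes on the plus strand that start from the start of Mir379 to the start of Mir410 (mm10, chr12:109709060-109743795, a span of 34.74 kb), and there are 38 of them among the 2202 miRNA genes of the deposited tables. Both libraries belong to 1 group. It is labelled as cortex from the left hemisphere at an age of 4 days, from males of B6CASTF1/J, an F1 cross of C57BL/6J and CAST/EiJ, with no treatment or altered allele named. They are labelled biological replicates 1 and 2 and are called library 1 and library 2 here. Total RNA was used and RNA under 30 nt was selected. The labels number the males separately but give both the same donor identifier, so tests between the libraries may reflect technical as well as animal differences.

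A miRNA gene is transcribed into a hairpin that is cut to mature arms of about the length of a sequencing read, named 5p and 3p. An arm pairs with target messenger RNAs mainly through its seed, bases 2 to 8. In this region the long noncoding RNAs Meg3, Rian and Mirg and the miRNAs among them are expressed from the maternal chromosome, and the cluster is known from brain, where several members act in dendrites and at synapses, and from embryonic and newborn tissues including muscle.

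The members are packed closely. The median gap between neighbouring hairpins was 522 nt, the smallest 20 nt (Mir679 to Mir1193) and the largest 4368 nt (Mir544 to Mir382). The 13 hairpins from Mir382 to Mir410 lie inside the annotated gene of Mirg (chr12:109729764-109749460), 8 of them overlapping an exon and 5 in introns, and the 25 hairpins from Mir379 to Mir544 lie upstream of it. RefSeq entries (GRCm38.p6) matched 37 of the 38 members and gave 69 mature arms of 19 to 25 nt, of which 29 begin with U and 26 with A. The exception was Gm27379. Only the 5p arm was given for Mir376c, Mir487b and Mir539, and only the 3p arm for Mir485. The arm given for Mir453 is not named as 5p or 3p.

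An arm of each of the most abundant members is shown first, because their genes hold most of the reads of the cluster. The counts do not show which arm of a gene those reads come from. Capitals mark the seed.
miR-411-5p: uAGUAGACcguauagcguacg
miR-379-5p: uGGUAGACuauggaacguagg
miR-487b-5p: uGGUUAUCccuguccucuucg
miR-382-5p: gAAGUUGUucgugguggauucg
miR-541-5p: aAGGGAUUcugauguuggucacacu
miR-409-3p: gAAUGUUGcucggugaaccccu

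The 69 arms carry 63 distinct seeds, and 6 seeds occur in a pair of members each. Arms that RefSeq did not give could not enter this comparison, so further shared seeds may be missed. None of these 6 seeds was found in the RefSeq mature arms outside the cluster. Related arms are shown together so that the shared seeds can be read. The 3p arms of Mir379 and Mir411 differ at 2 of 22 bases, and the 5p arms of Mir376c and Mir376b at 1 of 22, with no difference in the seed in either pair.
miR-379-3p: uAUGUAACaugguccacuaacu
miR-411-3p: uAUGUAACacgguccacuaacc
miR-1193-5p: uGGUAGACcggugacguaca
miR-376c-5p: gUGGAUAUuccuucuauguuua
miR-376b-5p: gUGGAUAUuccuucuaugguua
miR-494-5p: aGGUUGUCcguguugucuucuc
miR-410-5p: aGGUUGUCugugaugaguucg
miR-758-5p: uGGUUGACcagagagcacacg
miR-1197-5p: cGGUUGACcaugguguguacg

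The seed of miR-1193-5p is that of miR-379-5p above. A further pair, miR-496a-5p and miR-453, shares the seed GGUUGCC. Beyond seeds, the letters GGUU, searched in the RNA as written, occur in 19 of 69 cluster arms (27.5%) and in 8.33% of the 1669 other arms. GGUUGACC, which contains GGUU, occurs in 5 cluster arms and GGUCCAC in 5, against 0 of the 1669 others for each. These letter runs were chosen after the arms had been read, and a match is a description only.

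The counts are per hairpin and do not separate arms. The own-strand counts of all miRNA genes summed to 2999032 in library 1 and 3577964 in library 2, and levels are in CPM, the count scaled to a common library size by these sums. A count of 0 allows up to 1.00 CPM in library 1 and 0.838 CPM in library 2, from 3 counts. Intervals are exact 95% Clopper-Pearson binomial intervals and cover counting error only. Reads copied by PCR and carrying no molecular identifiers are not separate molecules.

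Markers of neurons and of other cell types and tissues differed between the libraries. The 13 neuron-enriched miRNA genes summed to 42677 CPM in library 1 and 1314 CPM in library 2. Most of that sum was Mir128-1 (53592 and 2623 counts), Mir137 (40242 and 99), Mir128-2 (16271 and 1379) and Mir132 (11179 and 391). The 4 genes at 0 in library 2, Mir9-2 and the 3 Mir124a copies, had only 7, 8, 3 and 1 counts in library 1, and reads that fit several copies go to no gene, so these 4 carry little information. The 10 muscle genes summed to 73.7 and 157120 CPM, almost all of it Mir206 (212 and 559242 counts), with 6 at 0 in library 1 (both Mir1a and both Mir133a genes, Mir208a and Mir208b) and 1, Mir133a-2, in library 2. The 5 genes of Hox clusters summed to 228 and 19112 CPM, with Mir196a-1 at 0 in library 1. The 3 blood genes summed to 45.3 and 153 CPM and the 3 vascular genes to 17107 and 46995. The 3 microglia or leukocyte genes summed to 561 and 423. Of these Mir150 was lower in library 2 (1208 and 267 counts), and Mir142 (323 and 701) and Mir223 (151 and 546) were higher. The 5 epithelial genes summed to 1375 and 4569, with Mir203 (2780 and 12608 counts) and Mir205 (19 and 2588) higher. Mir200a (107 and 50), Mir200b (392 and 265) and Mir200c (826 and 835) were lower in CPM. None of the genes in the blood, vascular, microglia or leukocyte and epithelial lists was at 0 in either library. The low neuron sum and the high muscle and Hox sums of library 2 run against its cortex label. Whether it is the labelled tissue was not tested. Every direction given here for library 2 is that of the library as labelled. The part of these cells in the cluster's values was not tested. In bulk tissue fewer cells of a type and less RNA per cell cannot be told apart.

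The cluster was abundant in both libraries and took a larger share of library 2. It held 219742 counts in library 1, or 7.33% of all own-strand counts (interval 7.30 to 7.36), and 667142 counts in library 2, or 18.7% (18.6 to 18.7), a ratio of 2.55. Over both libraries the share was 12.99% ± 8.004 (SD, n = 2). Without Mir411 and Mir487b, the most abundant members, the remaining 36 genes held 4.01% and 9.55%, a ratio of 2.39. Without Mir411 alone the ratio was 1.95, and without Mir487b alone it was 3.27. Of the 38 members 36 had reads, the same number in each library, and Mir654 and Mir453 had 0 counts in both. The median tested member stood at 368 CPM in library 1 and 1027 CPM in library 2, where the medians of all 463 tested miRNA genes were 65.0 and 24.9 CPM. Among the 50 most abundant genes of the table were 4 members in library 1 and 11 in library 2.

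**Figure D1:**
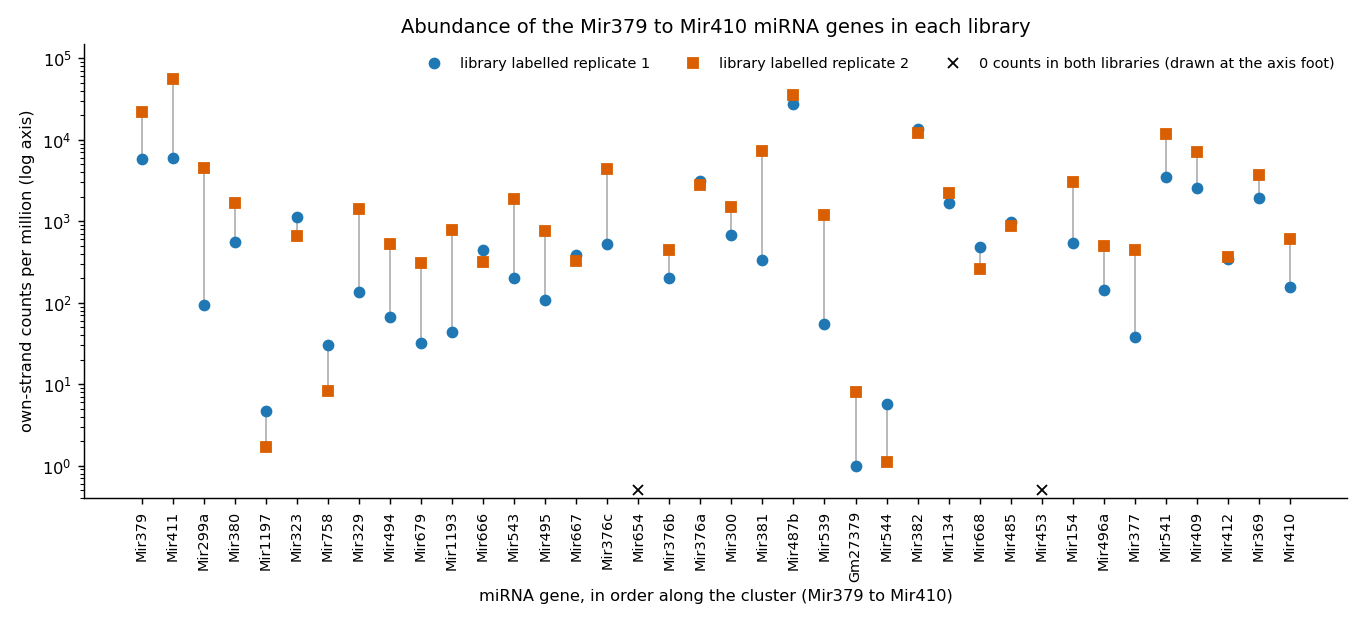
Own-strand CPM (log axis) of the 38 miRNA genes in their order along the cluster, with a circle for library 1 and a square for library 2, and a cross for genes with 0 counts in both. Levels run from about 1 CPM to 27160 CPM (Mir487b) in library 1 and to 55423 CPM (Mir411) in library 2, and high and low genes alternate along the cluster.

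Levels differed between neighbours by orders of magnitude. The same 5 genes led in both libraries, in a different order, and the 12 members with the highest mean CPM held 90.8% of the cluster's counts in library 1 and 90.4% in library 2. Mir487b (ENSMUSG00000076219.1, chr12:109727333-109727414, upstream of Mirg) had 81453 and 127077 counts, which is 27160 and 35517 CPM and rank 7 of all miRNA genes in both libraries. Mir411 (ENSMUSG00000065477.3, chr12:109710175-109710256) had 6060 and 55423 CPM, rank 36 and rank 4. Mir379 (ENSMUSG00000065498.4, chr12:109709060-109709125), which opens the cluster, had 5867 and 21944 CPM. Mir382 (ENSMUSG00000065428.4, chr12:109733771-109733846, in an exon of Mirg) had 13614 and 12098 CPM, and Mir541 (chr12:109742409-109742498, in an intron of Mirg) had 3496 and 11645 CPM. The other end of the cluster was lower, with Mir410 at 157 and 613 CPM. At the bottom were Mir1197 (14 and 6 counts), Mir544 (17 and 4) and Gm27379 (3 and 29).

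Shares within the cluster do not depend on how the libraries are scaled. Against counting error alone, the members did not change by a common factor. With intervals apart, the share of the cluster's counts was larger in library 2 for 19 members and smaller for 16. For 3 (Gm27379 and the undetected Mir654 and Mir453) the intervals overlapped. Most genes of the libraries differ beyond counting error. In the exact binomial test described below, 26.3% of all tested genes were higher in library 2 on total counts and 63.7% lower. That test uses shares of all counts with adjusted p-values, so it is not the same measure as intervals of shares within the cluster. Shares are also tied, since a larger share of some members makes that of others smaller. The 19 and 16 are therefore a description only. Mir411 made up 8.27% of the cluster in library 1 (8.16 to 8.39) and 29.7% in library 2 (29.6 to 29.8). Mir487b made up 37.1% (36.9 to 37.3) and 19.0% (18.9 to 19.1). Mir382 had 18.6% (18.4 to 18.7) and 6.49% (6.43 to 6.55), and with Mir487b it gave 55.6% of the cluster's reads in library 1, where the leading pair of library 2, Mir411 and Mir487b, gave 48.8%. These intervals treat reads as independent molecules and hold no spread between animals.

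**Figure D2:**
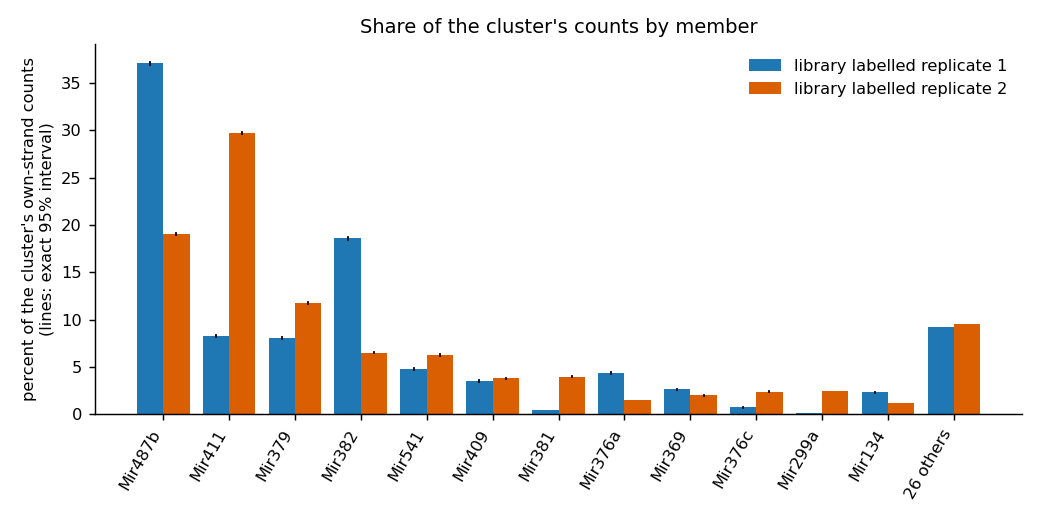
Percent of the cluster's own-strand counts held by each of the 12 members with the highest mean CPM and by the other 26 together, in library 1 (blue) and library 2 (orange), with exact 95% intervals as lines. Mir487b and Mir382 have the larger share in library 1 and Mir411 and Mir379 in library 2, while the other 26 genes together have similar shares.

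The libraries were then compared gene by gene, which asks how alike the 2 replicates of the group are. An exact two-sided binomial test of the counts was run over all genes with at least 10 counts summed, 36 of them members, with Benjamini-Hochberg adjustment over the 463 genes and a threshold of 0.05. It compares these libraries against counting error alone. With TMM scaling 33 of 36 members were higher in library 2, where 40.6% of all tested genes were, and 0 were lower, where 39.3% of all were. The 3 others were Mir1197, Mir758 and Mir544. With total counts 25 members were higher (26.3% of all tested genes) and 10 lower (63.7% of all), so 8 members that TMM scaling calls higher were not called higher on total counts. The median log2 ratio (library 2 over library 1, prior of 1 CPM) of the members was 3.06 with TMM and 1.66 with total counts, beside -0.26 and -1.35 over all tested genes. TMM adds 1.40 to the log2 ratio of an abundant gene. The spread between the libraries was 1.24 as edgeR's biological coefficient of variation, which is more than the next test assumed. A negative binomial exact test (edgeR) that assumed a coefficient of variation of 0.4 called 23 members higher (23.8% of all tested genes) and 0 lower (19.2% of all).

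On total counts, 14 of the 36 members were at least 4-fold higher in library 2 (38.9%, against 14.5% of all tested genes) and 1 was at least 4-fold lower (2.78%, against 44.3%). All folds that follow are on total counts with no prior. Mir299a had 281 and 16184 counts (93.7 and 4523 CPM). Its ratio, the highest of the cluster, was 48.3-fold, with a log2 interval of 5.42 to 5.77. Mir381, one of the members required for activity-dependent growth of dendrites in cultured neurons, had 996 and 26233 counts, or 332 and 7332 CPM, and was 22.1-fold higher (4.37 to 4.56). Mir539 had 167 and 4246 counts, a 21.3-fold ratio (4.19 to 4.65), and Mir1193 had 132 and 2776, a 17.6-fold ratio (3.89 to 4.40). All 4 lie upstream of Mirg, with other members between them. Mir329, also required for dendrite growth, had 134.7 and 1429 CPM (10.6-fold).

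Arms of these 4 genes are shown because they had the highest ratios. The seeds of the arms shown all differ. RefSeq gave only the 5p arm of Mir539, so the seed of its other arm was not compared.
miR-299a-5p: uGGUUUACcgucccacauacau
miR-299a-3p: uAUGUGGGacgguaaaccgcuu
miR-381-3p: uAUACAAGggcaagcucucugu
miR-539-5p: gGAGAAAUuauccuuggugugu
miR-1193-3p: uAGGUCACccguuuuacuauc

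The abundant Mir411 was 9.14-fold higher in library 2 (log2 interval 3.17 to 3.22) and Mir379 3.74-fold (1.88 to 1.93). In contrast Mir487b differed 1.31-fold (0.37 to 0.40). Mir382 was lower in library 2 on total counts, at a ratio of 0.889 (-0.19 to -0.15), and higher with TMM (log2 1.23). Mir376a, whose primary transcript is known for A-to-I editing in brain, had 3167 and 2796 CPM, also lower on total counts (log2 -0.18) and higher with TMM (1.22). Mir541 differed 3.33-fold, Mir409 2.74-fold (2568 and 7046 CPM) and Mir369 1.91-fold (1933 and 3682 CPM). Mir376c had 524 and 4397 CPM, an 8.39-fold ratio, while its relative Mir376b had 201 and 448 CPM (2.23-fold). Mir134, which limits dendritic spine size through Limk1, had 1688 and 2214 CPM (1.31-fold).

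The lowest ratios among members with at least 100 counts were those of Mir758, Mir668, Mir323 and Mir666, each lower in library 2 on total counts. Mir758 had 90 and 30 counts, a ratio of 0.279 (log2 interval -2.49 to -1.23), and did not pass with TMM. Mir668 had 1431 and 937 counts (ratio 0.549), Mir323 had 3403 and 2370 (0.584) and Mir666 had 1323 and 1137 (0.720), and these 3 passed as higher with TMM (log2 0.54, 0.63 and 0.93). Their direction therefore depends on the scaling. Mir412 had 347 and 363 CPM, a ratio of 1.04, and did not pass on total counts (log2 interval -0.06 to 0.18).

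Ratios did not follow position in a simple way. Between log2 ratio and position, Pearson's r was -0.140 and Spearman's rho was -0.129 over the 36 tested members, a description over genes that share both libraries. Adjacent tested members differed by a median of 1.48 on the log2 scale, and 24 of 35 neighbouring pairs by more than 1. The largest step, 5.12, lay between Mir758 and Mir329. A run of low ratios stood near 3 kb, at Mir1197, Mir323 and Mir758. Another stood near 25 kb, where Mir382, Mir134, Mir668 and Mir485, the first 4 hairpins inside Mirg, had log2 ratios from -0.86 to 0.39. By order, the 13 members from Mir379 to Mir543 held 20.0% of the cluster's counts in library 1 and 48.0% in library 2, and their median log2 ratio was 2.95. The 12 from Mir495 to Mir544 held 44.5% and 29.1% (median 1.15), and the 13 from Mir382 to Mir410 held 35.5% and 22.9% (median 1.19). Mir411 lies in the first of these stretches and Mir487b in the second.

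**Figure D3:**
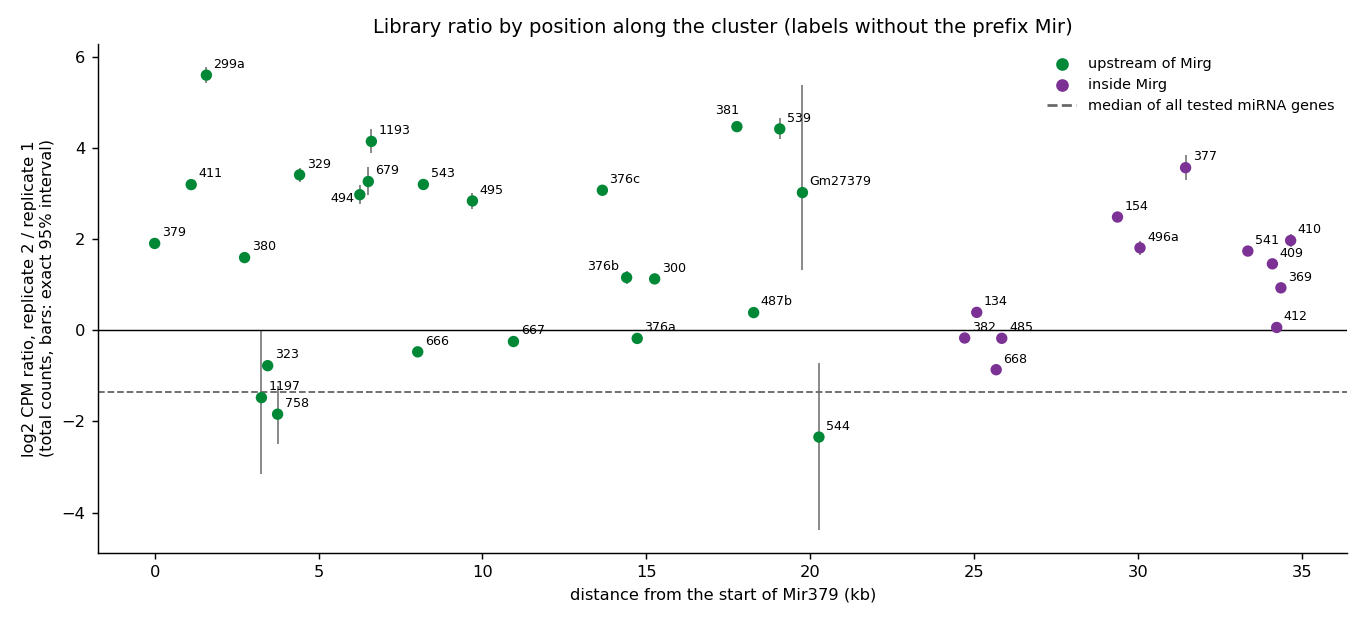
Log2 CPM ratio of library 2 over library 1 (total counts, no prior, exact 95% intervals) of the 36 tested members against distance from the start of Mir379 in kb, green upstream of Mirg and purple inside it. The dashed line is the median of all tested miRNA genes (-1.35, prior of 1 CPM), and the 3 members below it are Mir758, Mir1197 and Mir544.

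Inside Mirg, the 8 members at exons had a median log2 ratio of 0.23 and held 26.2% of the cluster's counts in library 1 and 11.0% in library 2. The 4 tested members in introns (Mir154, Mir496a, Mir541 and Mir409) had a median of 1.77 and held 9.20% and 11.9%. All 4 intronic members were higher in library 2 on total counts, and of the 8 exonic ones 4 were higher and 3 lower. Of all tested genes 26.3% were higher and 63.7% lower on total counts. With TMM all 4 intronic and all 8 exonic members were higher, where 40.6% of all tested genes were. Mir154 had 537 and 2998 CPM, Mir496a 142 and 498 CPM, and Mir377, in an exon, 38.0 and 449 CPM (11.8-fold). Mir369 and Mir496a, with Mir543 (203 and 1858 CPM, 9.16-fold), are known to act on N-cadherin during neurogenesis.

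Members that share a seed differed in level in some pairs and not in others. Mir379 and Mir411, with the same 3p seed, had 5867 and 6060 CPM in library 1 but 21944 and 55423 in library 2. Mir379 and Mir1193 have the same 5p seed, yet Mir1193 had 44.0 and 776 CPM beside 5867 and 21944 for Mir379. Mir494 and Mir410 had 66.4 and 157 CPM in library 1 and 521 and 613 CPM in library 2. Mir758 and Mir1197, which share the seed GGUUGAC, were both scarce and both lower in library 2 on total counts. Of the pair with the seed GGUUGCC, Mir453 had 0 counts and Mir496a 427 and 1781.

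Members rich in G and C had lower ratios. The comparison was chosen after the values were seen, and it is a description without a test. Between the mean G+C of a member's mature arms and its log2 ratio, r was -0.484 and rho -0.406 over 33 members with at least 100 counts (-0.370 and -0.326 over 35 tested members). With the G+C of the whole hairpin these were -0.512 and -0.486. All points come from the same pair of libraries. For Mir376c, Mir487b, Mir539 and Mir485 the mature G+C is that of the only arm in RefSeq. The 5 members with mature arms above 60% G+C on average were Mir323, Mir666, Mir667, Mir134 and Mir668, and their log2 ratios on total counts lay between -0.86 and 0.39 with a median of -0.47. The other 30 tested members with a mature sequence had a median of 1.85 (range -1.72 to 5.58). Outside genes here are all tested genes with a mature sequence except the plus-strand miRNA genes of Dlk1-Dio3. They still hold minus-strand genes of the region, such as Mir3544 (log2 ratio 5.53) and Mir3071 (3.05). In the same libraries the outside genes had a median of -2.03 above 60% G+C (88 genes) and -1.36 at or below it (278 genes). Their coefficients with mature G+C were -0.191 and -0.238. The 17 other tested plus-strand Dlk1-Dio3 genes had -0.574 and -0.584. The part of base composition in the ratios was not tested. One arm of each of the 5 is shown.
miR-323-5p: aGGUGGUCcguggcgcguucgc
miR-666-5p: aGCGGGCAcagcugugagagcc
miR-667-3p: uGACACCUgccacccagcccaag
miR-668-3p: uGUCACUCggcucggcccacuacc
miR-134-3p: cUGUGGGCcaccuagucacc

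**Figure D4:**
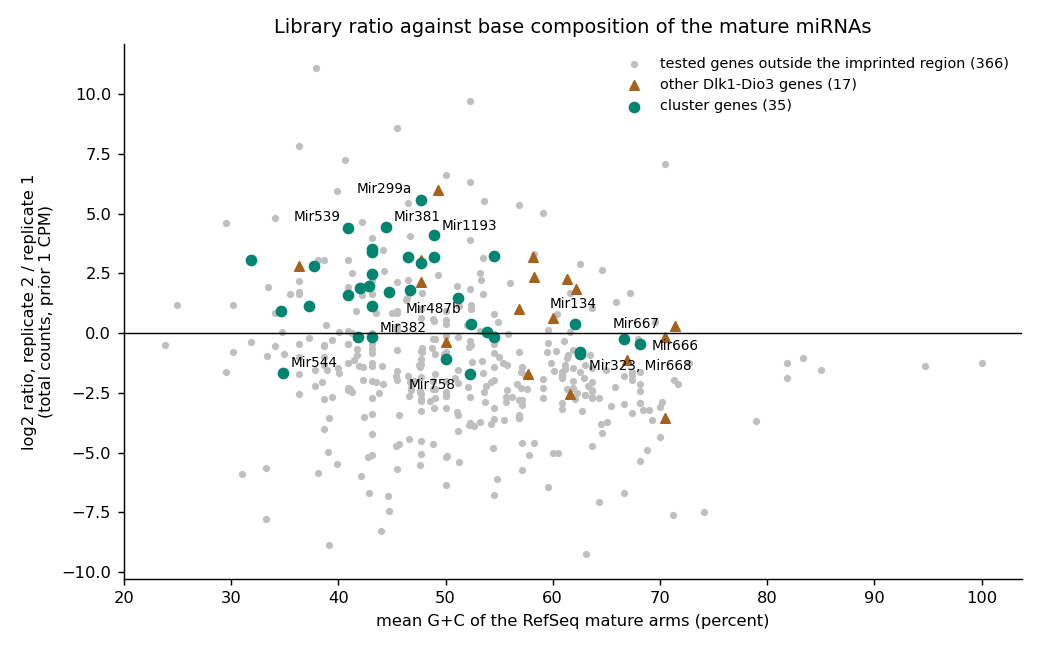
Log2 ratio of library 2 over library 1 (total counts, prior of 1 CPM) against the mean G+C percent of the RefSeq mature arms. Points are 35 cluster genes, 17 other plus-strand Dlk1-Dio3 genes and 366 outside genes, which still hold minus-strand genes of the region. The 5 cluster genes above 60% G+C lie between -0.86 and 0.39, while most cluster genes below 50% lie above 0.

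Members had higher median ratios than outside genes on the same side of a G+C split, a difference given without a test. The split was at the members' median of 46.5% G+C. Within each side composition was not matched. Above the split the outside genes reach 100% (Mir5126) and the members 68.2% (Mir666). The 18 members at or below it had a median log2 ratio of 1.93 and the 126 outside genes in that range -0.74. The 17 members above it had a median of 0.39 and the 240 outside genes -1.98. Members at or below the median G+C held 51.1% of the cluster's counts in library 1 and 69.9% in library 2. Over the 36 tested members the coefficients between the log2 ratio and mean log2 CPM were 0.287 and 0.183. Those with mature G+C over 35 tested members were -0.370 and -0.326. Mean CPM contains the library 2 level that is also in the ratio, so these 2 measures are not independent.

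Despite these differences the order of the members was partly kept. Between the log2(CPM + 1) values of the libraries, r was 0.837 and rho 0.748 over the 36 tested members, and 0.753 and 0.702 over the 427 other tested genes.

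The neighbouring miRNA genes of the Dlk1-Dio3 region give the setting. Of 21 such plus-strand genes outside the cluster, 17 were tested, and they held 5.85% of counts in library 1 and 11.4% in library 2. TMM scaling put 13 of them higher in library 2 (40.6% of all tested genes) and 2 lower (39.3% of all). Total counts put 10 higher (26.3% of all) and 5 lower (63.7% of all). Their median log2 ratio was 1.01 on total counts (2.41 with TMM), beside 1.66 in the cluster, and the difference between these lists was not tested.

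An annotated miRNA gene on the opposite strand overlaps 5 members, namely Mir299a (by Mir299b), Mir380 (Gm25750), Mir376a (Gm25252), Mir539 (Gm44322) and Mir409 (Gm24321). On their own strand these 5 held 19306 and 61622 counts, 8.79% and 9.24% of the cluster. In the unstranded column of the same tables they held 0 and 12 counts, the 12 at Mir299a. The highest ratio of the cluster, that of Mir299a, is therefore read from the stranded column. For the other 33 members the unstranded and own-strand sums were identical (200436 and 605520).

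Reads placed at several sites went to no gene and made up 46.1% of library 1 and 39.8% of library 2. A run of at least 20 nt is shared with another miRNA gene in 5 members. Mir376c and Mir376b share 31 nt, Mir411 and Mir758 share 21 nt, and Mir487b shares 20 nt with Mir376b. The levels of these 5 are uncertain to that extent.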

How the data were processed

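MicroRNA-seq was analysed for 2 libraries of 1 group. The deposited tables hold raw read counts per miRNA gene, 1 table per library and not pooled, on mm10 with GENCODE M21, per the text deposited beside them. The aligner, and what counted the reads, are not stated in the sources used. The layout is that of STAR gene counts, and the own-strand column was used. Entries without a gene stayed out of library sizes (on the own strand 18.4%, 46.1% and 5.55% of reads in library 1 and 6.11%, 39.8% and 1.47% in library 2 for unplaced, several sites and outside miRNA genes). Own-strand totals were 2999032 and 3577964.

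The binomial test used TMM factors of 1.63 and 0.615 from genes with at least 10 counts summed. With 1 library on each side edgeR's quasi-likelihood test could not be fitted, and the spread between the libraries was 1.24 as edgeR's biological coefficient of variation. Mature arms and G+C came from RefSeq, hairpins and positions from GENCODE M21.

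Members and lists were chosen with earlier results of these data known. Named members are the 12 highest by mean CPM, the 4 highest and 4 lowest ratios with at least 100 counts, the cluster ends, members sharing a seed and members with no count. Other members were named after their values were seen. Marker lists were neuron, muscle, Hox, blood, microglia or leukocyte, vascular and epithelium. Alternatives were total counts, DESeq2 size factors, count filters of 1 and 100, a prior of 0.1 CPM, the unstranded column, negative binomial tests, other denominators, removal of the leading gene or member, and each library alone. Statistics used scipy 1.17.1, numpy 2.4.6 and pandas 2.3.3 in Python 3.11.15. Scaling used DESeq2 1.42.0 and edgeR 4.0.16 in R 4.3.3, and figures used matplotlib 3.10.9.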

Additional observations from a re-analysis of the deposited data

Results flagged for a closer look

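Opposite-strand counts took no part in the main measurement. Over the 38 members they came to 5 reads in library 2, more than the limit of 3 for a count of 0, and to 2 in library 1. All lay at Mir299a, whose hairpin is overlapped by Mir299b on the other strand, and Mir299b had the same 2 and 5 reads on its own strand.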

How the results depend on the processing

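The count of members lower in library 2 was 0 under TMM and 10 under total counts. Their median log2 ratio of 3.06 became 1.66 under total counts and 3.19 under DESeq2 size factors. The number of higher members stayed between 23 (coefficient of variation 0.4) and 33 under the alternatives run. The Spearman coefficient between the libraries was 0.748, and 0.674 over the 33 members with at least 100 counts and 0.7999 in the unstranded column. The mean share of the cluster, 12.99%, was 6.001% with all entries of the table as denominator and 9.85% without the most abundant member, and it was 7.33% and 18.7% in the libraries taken alone. With 1 library on each side no test here separates animals from libraries, and members under 20 counts in a library have wide intervals.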
